A study of Mus musculus with 39 samples.

Results

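The AP-1 transcription factor genes described here were Fos, Fosb, Fosl1, Fosl2, Jun, Junb, Jund, Atf3 and Maff. They were taken as every probe set of the array that the platform annotation names by exactly 1 of these symbols, which gave 9 of 18193 named genes and 13 of 34945 named probe sets. B6C3F1 mice, which are hybrids of a pair of inbred strains, gave RNA for 39 Affymetrix arrays after 2 hours of reduced oxygen, which the sample titles call hypoxia, or of control treatment, which the titles call vehicle without naming a substance. The arrays cover 8 hypoxia and 8 vehicle livers, 4 hypoxia and 3 vehicle bone marrows, and 8 hypoxia and 8 vehicle spleens. All mice were killed under ketamine and acepromazine anaesthesia, and RNA came from marrow of the right humerus, from a piece of 1 liver lobe (left lateral) and from part of a spleen section. The labels do not say whether the hypoxia mice also received the vehicle. The oxygen level and the age and sex of the animals are not given in the sources used here. The labels do not say whether the samples of a group came from separate mice, so the p-values measure only the spread between these samples, which may be technical.

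AP-1 is a family of basic leucine zipper proteins that bind DNA as pairs. Fos proteins pair with Jun proteins but not with each other, while Jun proteins also pair among themselves, and the pairs bind AP-1 sites or the related cAMP response element (CRE). Fos, Jun, Junb and Atf3 are textbook immediate early genes, transcribed within minutes of growth factor, cytokine or stress signals through preformed factors such as SRF, CREB and Jun itself. The small Maf protein Maff lacks a transactivation domain and pairs with itself or with other leucine zipper proteins.

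The promoters of the 4 members with the largest liver changes by the brightest probe set of each gene are printed because AP-1 genes are known to be controlled through short elements near the start. RefSeq windows of build GRCm38.p6, from 250 bases before to 50 bases after an annotated start, matched 8 of the 9 members and gave 10 windows, and gene positions here are of the same build. The motifs searched on both strands were the CRE core TGACGT, the AP-1 site TGANTCA, the variant sites TGACATCA and TTACCTCA known from the Jun promoter (jun1 and jun2), the core ACGTG of the sites bound by hypoxia-inducible factors, and the CArG box bound by SRF. Matches are in capitals, and a CRE core and an ACGTG core can share letters.
Fos (chr12:85473640-85473939, plus strand): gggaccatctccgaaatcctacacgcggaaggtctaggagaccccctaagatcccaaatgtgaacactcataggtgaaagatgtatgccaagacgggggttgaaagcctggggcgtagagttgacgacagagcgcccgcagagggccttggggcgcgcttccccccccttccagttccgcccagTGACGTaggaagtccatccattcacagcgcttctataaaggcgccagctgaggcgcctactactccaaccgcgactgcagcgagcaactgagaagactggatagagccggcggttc
Jun (chr4:95052173-95052472, minus strand): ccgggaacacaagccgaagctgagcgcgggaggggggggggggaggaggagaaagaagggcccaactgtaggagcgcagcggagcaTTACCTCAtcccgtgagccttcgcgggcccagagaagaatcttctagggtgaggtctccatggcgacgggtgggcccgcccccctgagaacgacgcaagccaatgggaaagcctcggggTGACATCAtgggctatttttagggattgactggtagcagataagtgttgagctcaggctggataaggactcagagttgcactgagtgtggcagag
Atf3 (chr1:191183284-191183583, minus strand): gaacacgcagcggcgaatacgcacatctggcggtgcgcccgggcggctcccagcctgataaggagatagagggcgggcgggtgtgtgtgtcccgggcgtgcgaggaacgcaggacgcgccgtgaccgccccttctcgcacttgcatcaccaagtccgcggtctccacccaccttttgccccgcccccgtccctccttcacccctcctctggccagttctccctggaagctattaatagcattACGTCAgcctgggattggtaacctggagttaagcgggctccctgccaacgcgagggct
Maff (chr15:79347270-79347569, plus strand): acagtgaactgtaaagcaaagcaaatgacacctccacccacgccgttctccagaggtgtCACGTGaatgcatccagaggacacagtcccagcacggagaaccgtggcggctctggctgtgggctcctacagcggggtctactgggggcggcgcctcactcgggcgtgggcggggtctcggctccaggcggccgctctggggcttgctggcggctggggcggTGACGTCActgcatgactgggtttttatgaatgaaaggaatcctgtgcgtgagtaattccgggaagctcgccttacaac

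The Fos window held 1 CRE core, 66 bases before the start. The Jun window held jun1 and jun2, which began 45 and 164 bases before the start. The Atf3 window held 1 CRE core on the reverse strand, beginning 8 bases before the start. Maff had 3 windows, and the printed one held a CRE that reads the same on both strands and, farther upstream, an ACGTG core that does so too, while another had a jun1 match. Of the unprinted windows, Jund had 2 ACGTG cores on the reverse strand and Fosb, Fosl2 and Junb had no match. Among all 32851 windows, 7.513% held a CRE core, 7.808% an AP-1 site, 3.619% a jun1 match, 0.8889% a jun2 match, 19.62% an ACGTG core and 1.629% a CArG box. A match is a description of the letters and not of a bound site.

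**Figure D1:**
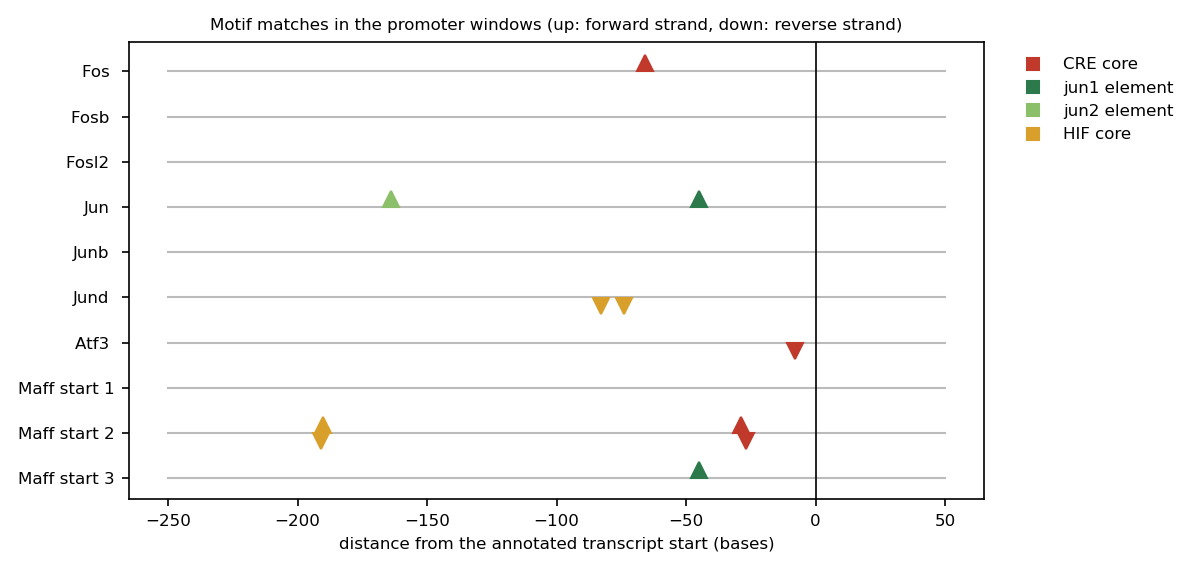
Positions of the motif matches, in bases from the annotated start, in the 10 promoter windows of 8 members. Triangles pointing up lie on the forward strand and triangles pointing down on the reverse strand. CRE cores lie within 66 bases of the start in Fos, Atf3 and the second Maff window.

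Levels are log2 intensities, each error of a log2 change is a standard error, and a gene was called at a limma adjusted p under 0.05 over all genes tested in the tissue. Each gene was represented by its brightest probe set in the tissue, and genes under the 30th percentile of mean level were set aside as dim, so that 12735 genes were tested in each tissue. Fosb was dim in all 3 tissues and Fosl1 in spleen, so the tested members numbered 8 for liver, 8 for bone marrow and 7 for spleen. Fos in vehicle livers averaged 4.48, below the dim limit of 4.93 in liver, so it passed through its hypoxia arrays. It was also called with no filter. Array medians were 5.62 to 5.71 in liver, 6.65 to 6.69 in marrow and 6.53 to 6.61 in spleen, so the tissues look separately normalized and levels are not compared between them, nor between probe sets.

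By the brightest probe set of each gene, Fos was called higher in all 3 tissues, Jun in liver and bone marrow, Maff in liver and spleen, Atf3 and Jund in liver, and Fosl2 in spleen. In liver, 5 of 8 tested members were called higher and none lower, where 3.88% of all genes were called higher and 7.22% lower. The 5 were Jun, Fos, Maff, Atf3 and Jund. No tested member in any tissue was lower at an unadjusted p under 0.05 either. The median change of the tested liver members was 0.73, against -0.03 over all genes tested. In 3 of 8 tested members (Fos, Jun and Maff) the hypoxia and vehicle livers did not overlap, as in 2.84% of all genes. In bone marrow, 2 of 8 tested members (Fos and Jun) were called higher and none lower, where 2.76% of all genes were called higher and 4.92% lower, and the median change was 0.25 against -0.01. In spleen, 3 of 7 tested members (Fos, Fosl2 and Maff) were called higher and none lower, where 6.83% of all genes were called higher and 12.6% lower, and the median change was 0.14 against -0.01. In bulk tissue, fewer cells of a type and less RNA per cell cannot be told apart.

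**Figure D2:**
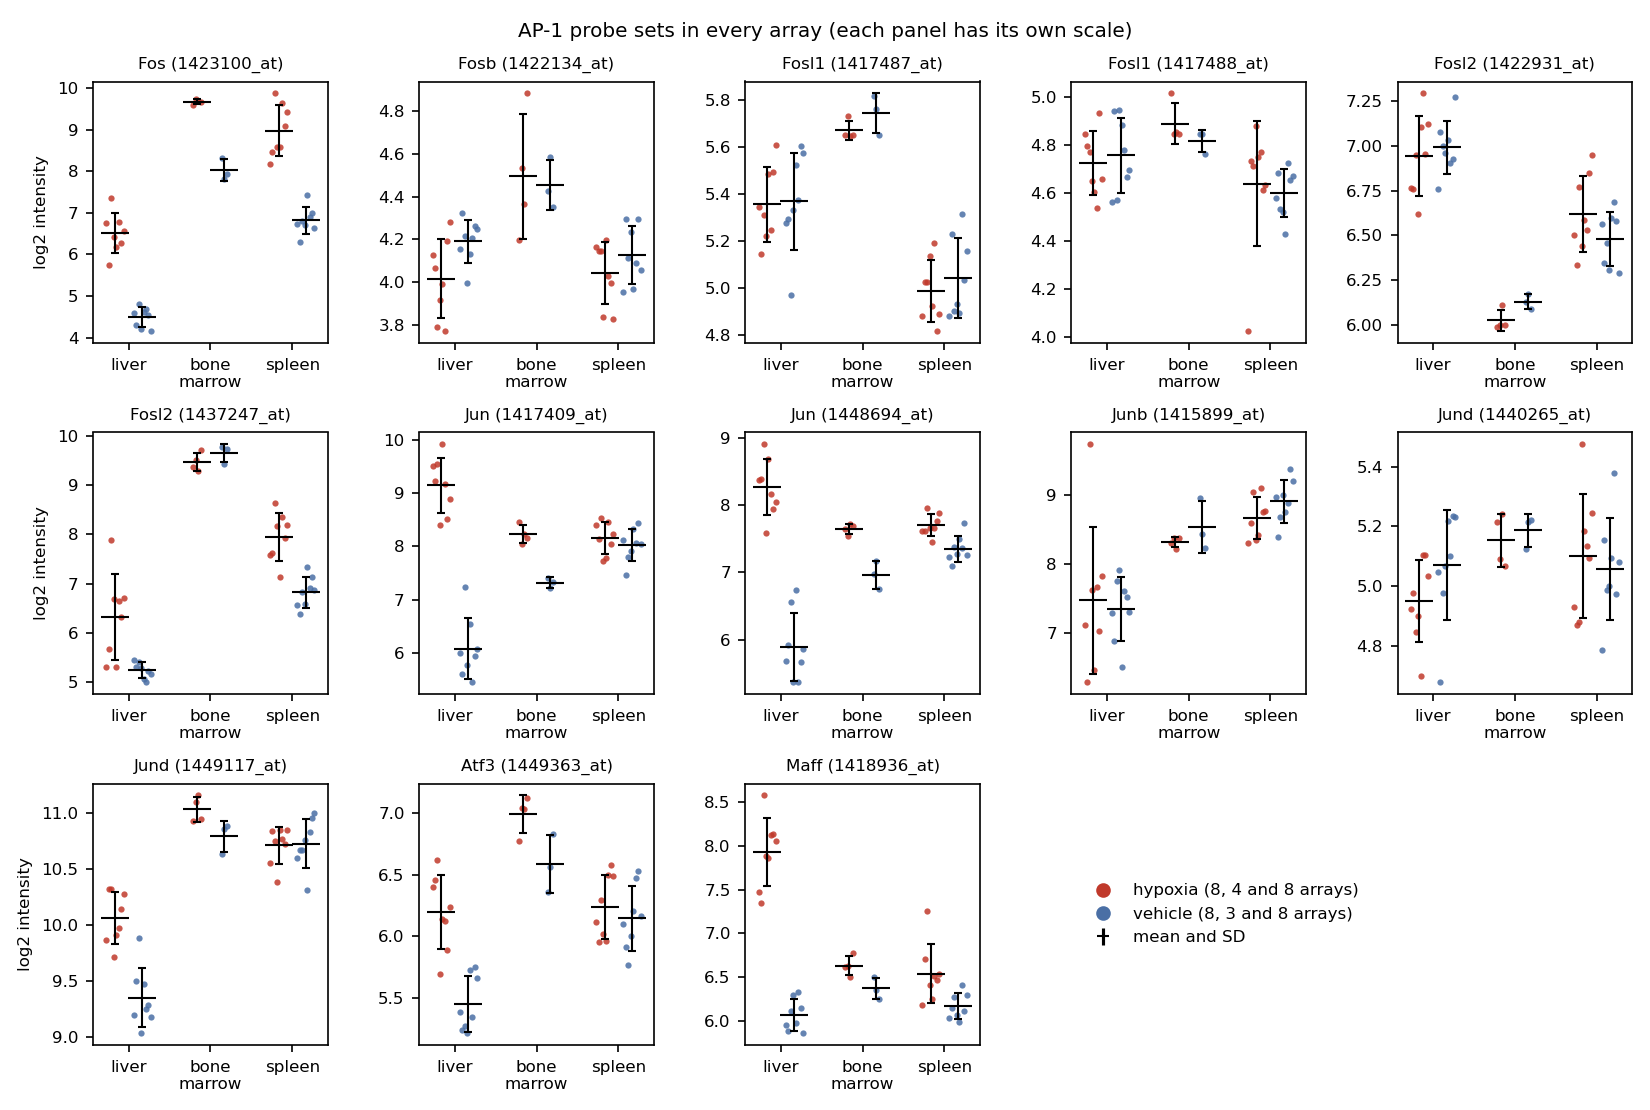
Log2 intensity of the 13 AP-1 probe sets in every array, by tissue, with hypoxia arrays in red left of vehicle arrays in blue. Black bars show the mean and SD, and each panel has its own scale. Fos is separated in all 3 tissues, Jun in liver and bone marrow, and Maff in liver.

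Fos (chr12:85473890-85477274), the founding partner of Jun in AP-1, was called higher in liver, bone marrow and spleen. Hypoxia livers ran from 5.74 through a median of 6.50 to 7.36, against a lowest, median and highest of 4.15, 4.56 and 4.80 in vehicle livers. All 8 hypoxia livers lay above the highest vehicle liver, and the change was 2.03 ± 0.17 (4.08-fold, adjusted p = 9.04e-08). In bone marrow, Fos stood at 9.60, 9.75, 9.69 and 9.67 in the hypoxia samples and at 8.33, 7.82 and 7.93 in the vehicle samples. The hypoxia marrows lay close together and above all 3 vehicle marrows, with a change of 1.65 ± 0.11 (3.13-fold, adjusted p = 0.000252). Hypoxia spleens ran from 8.18 through a median of 8.84 to 9.87, against 6.31, 6.77 and 7.43 in vehicle spleens. The spleen groups did not overlap either, and the change was 2.16 ± 0.23 (4.47-fold, adjusted p = 4.89e-06). Fos was the only one of the 7 tested members without overlap in spleen, where 4.69% of all genes had none.

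Fosl2 (Fra-2, chr5:32136472-32157840), a Fos relative without the strong transactivation domain of Fos, depended on the probe set. Probe set 1437247_at ran from 5.30 through a median of 6.49 to 7.90 in hypoxia livers, against 5.00, 5.26 and 5.46 in vehicle livers. It lay above the highest vehicle liver in 6 of 8 hypoxia livers, with 1 of them, replicate 2, only slightly above, and the change was 1.08 ± 0.27 (adjusted p = 0.0170 over all named probe sets). The brighter liver probe set, 1422931_at, averaged 6.94 ± 0.22 in hypoxia livers and 6.99 ± 0.15 in vehicle livers (SD, n = 8 each), and its difference of -0.05 had a 95% interval of -0.24 to 0.15 and was not called (adjusted p = 0.831). In spleen, 1437247_at was the brighter one and ran from 7.14 through a median of 8.06 to 8.64 in hypoxia spleens, against 6.39, 6.85 and 7.34 in vehicle spleens. It lay above the highest vehicle spleen in 7 of 8 hypoxia spleens, with a change of 1.13 ± 0.19 (2.19-fold, adjusted p = 0.000367). The other probe set had a difference of 0.14 ± 0.09 in spleen and was not called (adjusted p = 0.350). In bone marrow, 1437247_at stood at 9.36, 9.51, 9.29 and 9.70 in hypoxia and at 9.77, 9.44 and 9.73 in vehicle samples, which overlapped, with a difference of -0.18 ± 0.12 that was not called (adjusted p = 0.391).

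Neutrophil and macrophage markers were set beside Fosl2 in each array. In liver, 4 of 8 tested neutrophil markers were called higher and none lower, where 3.88% of all genes were called higher. The 4 were Lcn2, a granule protein also made by hepatocytes in the acute phase, at 3.48 ± 1.05 (adjusted p = 0.0365), the calcium-binding proteins S100a8 at 1.81 and S100a9 at 1.39, and the granule protease Prtn3 at 1.80. S100a8 averaged 4.48 in vehicle livers, below the dim limit, and so was tested through its hypoxia arrays. The summed intensity of the 11 markers with a probe set ran from 449 to 16195 in hypoxia livers and from 418 to 1305 in vehicle livers. Lcn2 alone stood at 13.8 on the log2 scale in hypoxia liver 6, so the upper end of this sum was mostly Lcn2. The sum is therefore not a measure of neutrophil number in liver. Hypoxia livers 1, 2 and 5 had Fosl2 (1437247_at) at 5.32, 5.69 and 5.30 and marker means of 5.09, 5.23 and 5.39 on the log2 scale, while vehicle livers had marker means of 5.15 to 5.39. The other 5 hypoxia livers had Fosl2 at 6.33 to 7.90 and marker means of 5.76 to 7.02. In these livers Lcn2 stood at 11.8 to 13.8, while it stood at 7.07 to 7.15 in hypoxia livers 1, 2 and 5 and at 6.03 to 9.91 in vehicle livers. The other 4 tested markers, Cxcr2, Ltf, Ngp and Elane, had log2 differences of -0.23, 0.01, 0.06 and 0.07 in liver and were not called. Of 10 macrophage markers 1, the endotoxin co-receptor Cd14, was called higher in liver, at 1.42 ± 0.40 (adjusted p = 0.0274). The summed macrophage markers ran from 3074 to 7617 in hypoxia livers and from 3056 to 5692 in vehicle livers. Their log2 means were 8.69 to 9.10 in hypoxia livers 3, 6, 7 and 8, 7.66 to 8.13 in hypoxia livers 1, 2, 4 and 5, and 7.68 to 8.37 in vehicle livers. The part of neutrophils or macrophages in the Fosl2 change was not tested.

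In spleen, 2 of 11 tested neutrophil markers (Cxcr2 and Mmp8) and 1 of 9 macrophage markers (Cd14, at 1.15 ± 0.24) were called higher, where 6.83% of all genes were. Among B cell markers 3 of 7 (Cd79b, Fcer2a and Pax5) were called lower, where 12.6% of all genes were. The summed neutrophil markers ran from 7804 to 76687 in hypoxia spleens and from 10319 to 31845 in vehicle spleens, and the summed B cell markers from 7720 to 26916 in hypoxia spleens and from 19572 to 32112 in vehicle spleens. Hypoxia spleens 1, 2 and 5 had neutrophil marker means of 9.25, 8.52 and 9.86, within or below the vehicle range of 8.87 to 10.22. Their Fos values of 8.18, 8.46 and 8.59 lay above the highest vehicle spleen, at 7.43. Their Fosl2 values were 7.59, 7.62 and 7.14, of which the last lay below the highest vehicle spleen, at 7.34. Hypoxia spleen 3 had the highest marker mean, 11.96, and the highest Fos and Fosl2. Hypoxia spleen 4, with a marker mean of 11.45, had Fos at 8.58 and Fosl2 at 8.18. Hypoxia spleen 7, with a lower marker mean of 10.58, had Fos at 9.08 and Fosl2 at 7.94. The part of the cell mixture in the spleen changes was not tested.

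**Figure D3:**
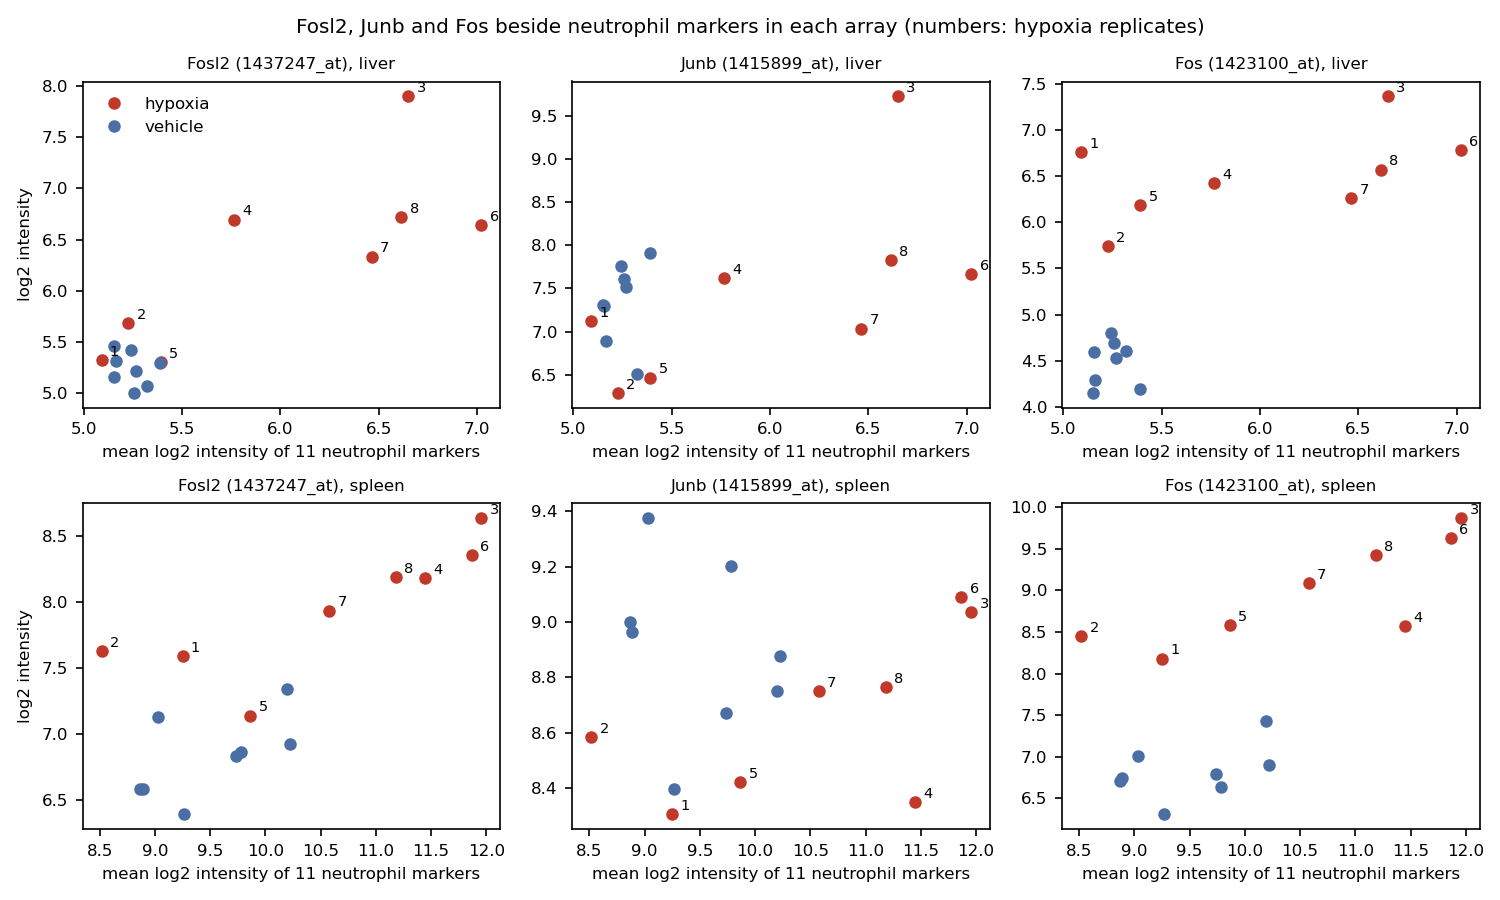
Log2 intensity of Fosl2 (1437247_at), Junb and Fos in each liver and spleen array, against the mean log2 intensity of 11 neutrophil markers, with hypoxia in red and vehicle in blue. Numbers are hypoxia replicates. Hypoxia livers 1, 2 and 5 sit near the vehicle livers for Fosl2 and above them for Fos. In liver the marker mean includes Lcn2, which hepatocytes also make.

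The remaining Fos relatives gave no call. Fosb (chr7:19302696-19310118), which like Fos carries a transactivation domain, averaged 4.02 ± 0.19 in hypoxia livers and 4.19 ± 0.10 in vehicle livers (SD, n = 8 each), among the dim genes of the tissue. Its liver difference of -0.18 ± 0.08 was not called with every probe set fitted (adjusted p = 0.216, unadjusted p = 0.0364). Of the 8 hypoxia livers, 4 lay below the lowest vehicle liver. In bone marrow and spleen the differences of Fosb were 0.04 and -0.08, also not called. Fosl1 (Fra-1, chr19:5447698-5455938), a Fos relative induced by ERK signalling, had 2 probe sets, whose differences in the 3 tissues lay between -0.07 and 0.07. In liver its brighter probe set had a difference of -0.01, with a 95% interval of -0.20 to 0.18.

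Jun (chr4:95049036-95052222), the partner that lets AP-1 bind without Fos, had the largest liver change of the members. Its brighter probe set ran from 8.40 through a median of 9.20 to 9.92 in hypoxia livers, against 5.45, 5.97 and 7.24 in vehicle livers. The groups did not overlap, and the change was 3.07 ± 0.24 (8.39-fold, adjusted p = 3.70e-08). The second probe set, 1448694_at, changed by 2.36 ± 0.20 in liver, also without overlap.

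In bone marrow, Jun stood at 8.45, 8.05, 8.24 and 8.17 in hypoxia and at 7.41, 7.22 and 7.33 in vehicle samples. The groups did not overlap, and the change was 0.91 ± 0.10 (1.88-fold, adjusted p = 0.00201), with 0.68 ± 0.10 for the second probe set. In bone marrow, 3 of 8 tested members (Fos, Jun and Jund) had no overlap, but with so few arrays 20.5% of all genes had none. In 1 fit of all arrays the bone marrow call of Jun was lost (adjusted p = 0.108). In spleen, the brighter Jun probe set ran from 7.73 through a median of 8.19 to 8.53 in hypoxia spleens, against 7.46, 8.06 and 8.44 in vehicle spleens. These ranges largely overlapped, and the difference of 0.14 ± 0.14 was not called (adjusted p = 0.534). The second spleen probe set changed by 0.35 ± 0.09 and was called (adjusted p = 0.0105), with 3 of 8 hypoxia spleens above the highest vehicle spleen, so that this probe set was called in all 3 tissues.

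Fitting every named probe set on its own called 7 of 13 AP-1 probe sets higher in liver, where 3.21% of all named probe sets were. The count was 3 in marrow against a background of 1.73%, and 4 in the spleen against 6.02%.

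**Figure D4:**
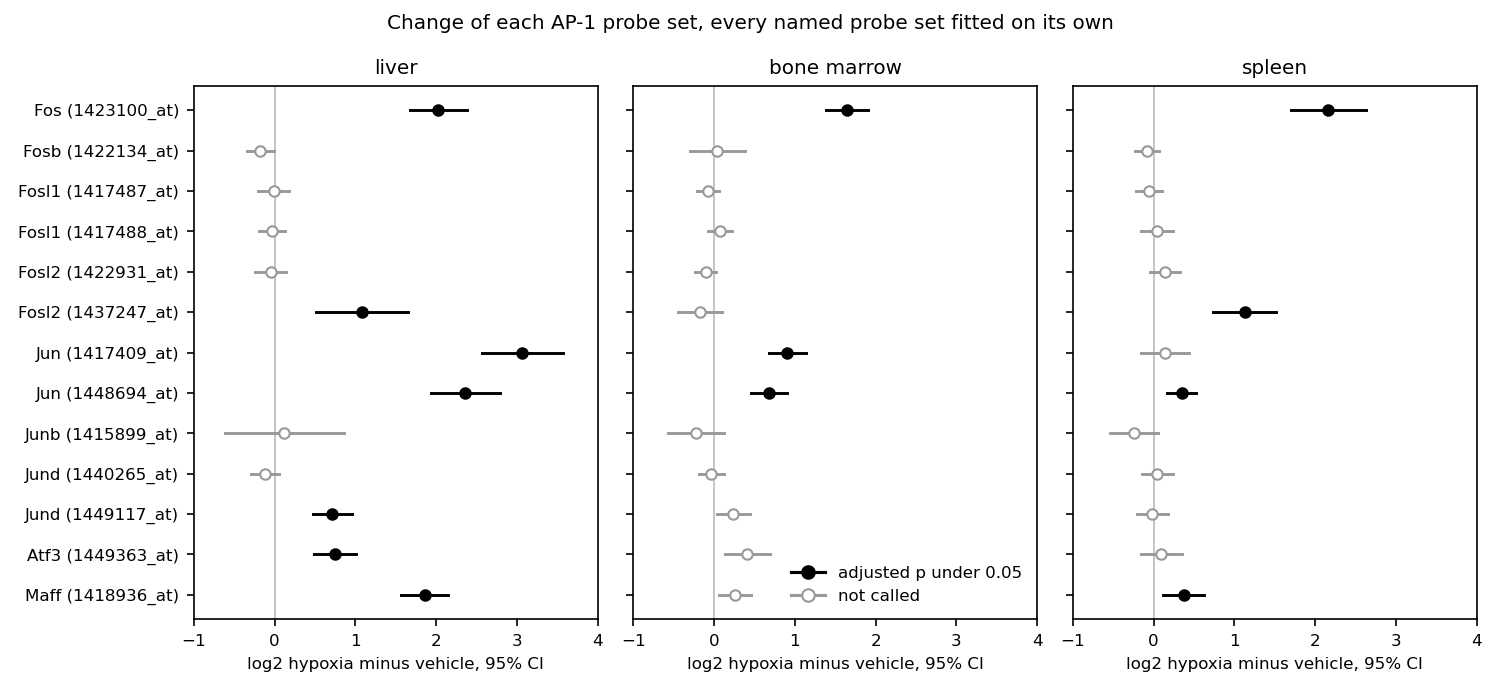
Log2 hypoxia minus vehicle of the 13 AP-1 probe sets in liver, bone marrow and spleen with 95% intervals, each probe set fitted on its own. Filled black points were called and open grey points were not. Only 1 of the paired probe sets was called for Fosl2 in liver and spleen, Jund in liver and Jun in spleen, and the difference between paired probe sets was not tested.

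Junb (chr8:84976909-84978748), a Jun relative that activates transcription less than Jun in many settings, was not called in any tissue. Hypoxia livers ran from 6.29 through a median of 7.37 to 9.73, against 6.51, 7.41 and 7.91 in vehicle livers. Only hypoxia liver 3 lay above the vehicle range, and the difference was 0.12 ± 0.35, with a 95% interval of -0.62 to 0.86 (adjusted p = 0.890). Without hypoxia liver 3 it was -0.20. In spleen, the difference of Junb was -0.24 ± 0.14 (adjusted p = 0.257) and in bone marrow by -0.22 ± 0.15 (adjusted p = 0.411), with overlapping groups in both. Hypoxia liver 3 was also the highest liver for Fos, Fosl2 (1437247_at), Maff, Atf3, Jund (1449117_at) and the second Jun probe set (1448694_at).

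Jund (chr8:70697739-70700616), the Jun protein present in most resting cells, was called higher in liver by its brighter probe set. That probe set ran from 9.71 through a median of 10.06 to 10.32 in hypoxia livers, against 9.04, 9.27 and 9.89 in vehicle livers. It lay above the highest vehicle liver in 6 of 8 hypoxia livers, with a change of 0.71 ± 0.12 (1.64-fold, adjusted p = 0.000331), or 0.30 with the mean of both probe sets. The dimmer probe set, 1440265_at, had a difference of -0.12 ± 0.08 and was not called (adjusted p = 0.486). In bone marrow the brighter probe set stood at 10.93, 11.10, 11.16 and 10.95 in hypoxia and at 10.64, 10.86 and 10.89 in vehicle samples. These did not overlap, but the difference of 0.24 ± 0.09 was not called (adjusted p = 0.131). In spleen the difference was -0.01, with a 95% interval of -0.21 to 0.18.

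Atf3 (chr1:191170296-191183333), a stress-induced zipper protein that pairs with Jun and mostly represses, ran from 5.70 through a median of 6.19 to 6.62 in hypoxia livers, against 5.21, 5.36 and 5.75 in vehicle livers. It lay above the highest vehicle liver in 7 of 8 hypoxia livers, with a change of 0.75 ± 0.12 (1.68-fold, adjusted p = 0.000378). In bone marrow it stood at 6.77, 7.04, 7.03 and 7.13 in hypoxia and at 6.36, 6.56 and 6.83 in vehicle samples. There 3 of 4 hypoxia samples lay above the vehicle range, and the difference of 0.41 ± 0.12 was not called (adjusted p = 0.0772). In spleen the difference was 0.09, with a 95% interval of -0.16 to 0.35 (adjusted p = 0.648).

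Maff (chr15:79346621-79359078), the small Maf protein of the set, ran from 7.35 through a median of 7.97 to 8.57 in hypoxia livers, against 5.86, 6.05 and 6.33 in vehicle livers. The groups did not overlap, and the change was 1.86 ± 0.14 (3.62-fold, adjusted p = 2.00e-08). In spleen it ran from 6.18 through a median of 6.49 to 7.26 in hypoxia, against 5.99, 6.13 and 6.41 in vehicle samples. It lay above the vehicle range in 6 of 8 hypoxia spleens, with a change of 0.37 ± 0.12 (1.30-fold, adjusted p = 0.0377). That call was lost when any 1 of hypoxia spleens 2, 6, 7 and 8 or vehicle spleens 1, 4, 5 and 7 was left out, with adjusted p up to 0.0687. In bone marrow Maff stood at 6.62, 6.63, 6.50 and 6.78 in hypoxia and at 6.50, 6.36 and 6.26 in vehicle samples, with a difference of 0.26 ± 0.08 that was not called (adjusted p = 0.0989).

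Whether the tissues differed in the response was tested as a difference of changes in 1 limma fit of all arrays. Jun changed by 2.93 ± 0.27 more in liver than in spleen (adjusted p = 3.31e-10) and by 2.16 ± 0.35 more than in bone marrow (adjusted p = 0.000104). Its second probe set gave 2.02 and 1.68. Maff changed by 1.48 ± 0.18 more in liver than in spleen (adjusted p = 1.42e-07) and by 1.60 ± 0.23 more than in bone marrow (adjusted p = 1.32e-05). Jund and Atf3 changed more in liver than in spleen, by 0.73 ± 0.15 (adjusted p = 0.000724) and 0.65 ± 0.17 (adjusted p = 0.0116). The dimmer Jund probe set, 1440265_at, gave -0.17 ± 0.12 and was not called (adjusted p = 0.474 over all named probe sets). These 4 members were called for liver minus spleen, where 9.74% of all genes were, and Jun and Maff for liver minus bone marrow, where 2.74% were. None of 7 members was called for spleen minus bone marrow, where 0.289% of genes were. There 2 (Fosl2 and Jun) had an unadjusted p under 0.05. The share of all genes at that threshold was not counted, so nothing is read from this count. The second Jun probe set gave -0.33 and the other Fosl2 probe set 0.25, with unadjusted limma p of 0.248 and 0.127.

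Fos gave no call between tissues. Its liver change minus its spleen change was -0.13, with a 95% interval of -0.69 to 0.42, and its liver change minus its bone marrow change was 0.38, with an interval of -0.33 to 1.10. For Fosl2 (1437247_at), liver minus bone marrow was 1.26 ± 0.42 (adjusted p = 0.102) and spleen minus bone marrow 1.31 ± 0.42 (adjusted p = 0.291), and neither was called. The first of these passed without hypoxia liver 1 or 5 (adjusted p = 0.0408 and 0.0368).

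**Figure D5:**
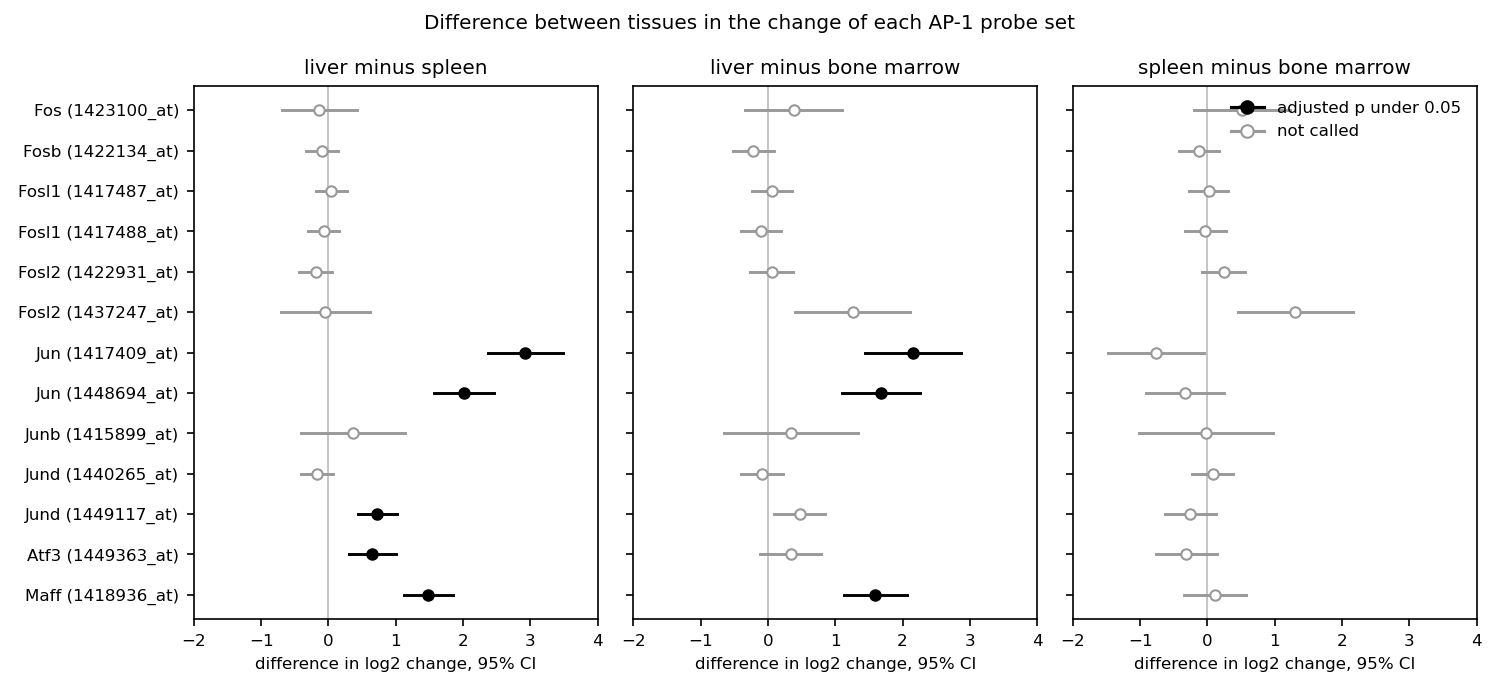
Difference between 2 tissues in the log2 change of each AP-1 probe set, with 95% intervals, for liver minus spleen, liver minus bone marrow and spleen minus bone marrow. Filled black points passed an adjusted p under 0.05 over all named probe sets. Jun and Maff lie right of 0 in both panels that start with liver, while the intervals of Fos span 0 in all 3.

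Replicates 1 to 4 and 5 to 8 of liver and spleen were compared because earlier results of these data set liver arrays of these numbers apart, while the labels name no batch. Liver changes in replicates 5 to 8 and 1 to 4 were 1.95 and 2.10 for Fos, 3.12 and 3.01 for Jun, 1.96 and 1.75 for Maff, 0.78 and 0.65 for Jund, and 0.48 and 1.01 for Atf3. Spleen changes in replicates 5 to 8 and 1 to 4 were 2.19 and 2.13 for Fos, 0.84 and 1.42 for Fosl2, 0.24 and 0.50 for Maff and -0.09 and 0.37 for Jun. Of these 9 changes, that of Jun in spleen differed in direction between the sets. Among the tested changes not listed, so did those of liver Fosl2 (0.08 and -0.18), liver Fosl1 (-0.06 and 0.04) and spleen Jund (0.02 and -0.05). None of 8 members in liver and none of 7 in spleen was called for a difference between the sets. Of all genes 0% in liver and 0.196% in spleen were called by limma. At an unadjusted threshold of 0.05 it gave 1272 genes in liver, with Atf3 as the 1 member (adjusted p = 0.444), and 1759 genes in spleen, none of them a member.

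Other leucine zipper genes that pair or compete with AP-1 were called in both directions. In liver, 3 of 17 tested were called higher, where 3.88% of all genes were, and 4 lower, where 7.22% were. Jdp2, a repressor that pairs with Jun, changed by 1.00 ± 0.12 (adjusted p = 1.13e-05), Nfil3, a repressor linked to the circadian clock, by 1.04 ± 0.19 (adjusted p = 0.00104) and Atf4, a factor of the integrated stress response, by 0.26. Nfe2l2, which encodes the oxidant response factor NRF2 and pairs with small Maf proteins, fell by 1.20 on the log2 scale (adjusted p = 1.30e-07). The other 3 lower genes were Atf5 at -0.39, Creb1, which encodes CREB, at -0.38 and Batf3, a zipper factor of dendritic cells, at -0.36. In bone marrow, 2 of 17 were called higher, where 2.76% of all genes were, and 2 lower, where 4.92% were. Maf stood at 0.69 and Jdp2 at 0.52, and the lower ones were Nfe2l2 at -0.31 and Atf2, a partner of Jun, at -0.25. In spleen, 2 of 17 were called higher, where 6.83% of all genes were, and 3 lower, where 12.6% were. Jdp2 changed by 1.25 ± 0.16 (adjusted p = 4.52e-05) and Nfil3 by 1.08, and the lower ones were Batf3 at -0.50, Creb1 at -0.37 and Atf5 at -0.27. Nfil3 averaged 4.93 in vehicle spleens, below the dim limit of 5.38, and so was tested through its hypoxia arrays. The list medians for liver, marrow and spleen were -0.09, -0.13 and -0.05, against -0.03, -0.01 and -0.01 over all genes.

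MAP kinases and SRF factors act upstream of AP-1 and switch on its genes. In liver, 1 of 18 was called higher (3.88% of all genes) and 1 lower (7.22%), and these were Elk1, an SRF partner, at 0.32 and Map3k2, a kinase of the JNK and ERK5 routes, at -0.38. In bone marrow, 0 of 20 were called higher (2.76% of all genes) and 1 lower (4.92%), which was Map3k2 at -0.31. At an unadjusted p under 0.05, 2 of the 20 were higher, where 9.90% of all genes were, and 4 lower, where 14.8% were. In spleen, 1 of 20 was called higher (6.83% of all genes), Mapk8 (JNK1) at 0.35 ± 0.06, and 4 lower (12.6%). The 4 were Map3k4, a kinase upstream of p38 and JNK, at -0.36, Map3k2 at -0.42, the ERK-activated kinase gene Rps6ka3 at -0.29 and Srf at -0.22. These are transcript levels and not kinase activity. The list medians were 0.04, 0.03 and -0.01.

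Among textbook AP-1 targets, 0 of 11 tested in liver were called in either direction, where 3.88% of all genes were called higher and 7.22% lower. At an unadjusted p under 0.05, 2 of the 11 were higher, where 8.21% of all genes were, and none was lower. These were Cd44 and Vim, named after their values were seen, and Cd44 averaged 4.76 in vehicle livers, below the dim limit. In bone marrow, 0 of 12 were called higher (2.76% of all genes) and 2 lower (4.92%), the cytokine Tnf at -0.47 and the collagenase Mmp13 at -0.72. At an unadjusted p under 0.05, 1 of the 12 was higher, where 9.90% of all genes were, and 4 lower, where 14.8% were. In spleen, 4 of 12 were called higher, where 6.83% of all genes were, and 2 lower, where 12.6% were. The 4 were Hbegf, a growth factor of the EGF family, at 0.72 ± 0.17, the gelatinase Mmp9, a neutrophil granule enzyme, at 1.18 ± 0.35, the adhesion receptor Cd44 at 0.28 and the urokinase receptor Plaur at 0.33. The 2 lower were Tnf at -0.40 and the cyclin Ccnd1 at -0.60. The list medians were 0.08, -0.09 and 0.29.

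The genes most like a member were taken over deviations of the 39 arrays from the mean of their own group, so that the treatment difference itself is removed, among 11008 genes measured in all tissues. Genes on 1 array share its RNA sample, so these correlations are given as descriptions. For Fos the closest were Il1r2, a decoy receptor for interleukin-1 on neutrophils, and Hp, the plasma protein haptoglobin (Pearson r = 0.73 each), then Cd300lf and the oxygen sensor Egln3 (0.72 each). For Junb they were Pfkfb3, a glycolysis switch enzyme, and Tiparp (0.84 each), then Jmjd6 and the lipid droplet gene Hilpda (0.81 each). Without hypoxia liver 3 those of Junb were 0.77, 0.64, 0.62 and 0.62. For Jun the closest were Arid5b (0.66), Plp2 (0.63), Prkx (0.61) and Rap2b (0.60). For Atf3 they were Kcnq1 (0.63), Bhlhe41 (0.62), 6430548M08Rik (0.60) and Pdcl (0.58). For Fosl2 (1437247_at), added after its values were seen, they were Cd14 and Tgm2 (0.82 each), Lcn2 (0.81) and Litaf (0.80).

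In liver, the deviations of Junb went with those of Fosl2 (1437247_at), Maff and Fos (Pearson r = 0.84, 0.79 and 0.74 over 16 arrays), where hypoxia liver 3 is high for all 4. The 2 Jun probe sets went together at 0.86, and Fos with Jun at 0.27 to 0.31. In spleen, Fos went with Fosl2 (1437247_at) at 0.82 and with the 2 Jun probe sets at 0.59 and 0.69. The 2 probe sets of Fosl2 went together at 0.09 in liver and 0.42 in spleen.

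Marker levels were set side by side only to check the tissue labels, since the tissues look separately normalized. The mean log2 intensity of 8 hepatocyte markers was 14.5 to 14.6 in all livers. It was 5.15 to 5.40 in the marrow arrays, and the spleen arrays had 5.21 to 6.04. The mean of 11 neutrophil markers was 13.8 to 14.1 in bone marrow, 8.52 to 12.0 in spleen and 5.09 to 7.02 in liver. The mean of 7 B cell markers was 9.62 to 11.7 in spleen, 8.37 to 8.77 in bone marrow and 4.69 to 5.12 in liver. No array duplicated another, since at most 0.0844% of values were equal between liver or spleen arrays and at most 7.77% between bone marrow arrays.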

How the data were processed

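RNA of liver, bone marrow and spleen was hybridised to 1 array per sample, with labelled targets made in a single amplification cycle, per the labels' protocols. What the authors deposited is 1 linear intensity per probe set and array, from 5.78 to 43830, and RMA and limma are the tools listed, without versions, per the submitters' processing notes. RMA is an array method for background, normalization and probe summary. The number of arrays limits the precision.

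Each deposited intensity was taken to log2 with nothing added. Of 45101 probe sets, 64 were controls, 34945 had 1 gene symbol and 932 had several, and only those with 1 symbol were used. Symbols were checked by gene ID in a RefSeq gene table (GRCm38.p6), which held 34741 of them. The deposited series held 0 columns without a sample. Moderated two-sided tests came from limma 3.58.1 under R 4.3.3, reading files with the data.table package (version 1.17.8), and each tissue was fitted alone as hypoxia minus vehicle without covariates, on the brightest probe set of each gene, leaving out genes below the 30th percentile of mean level. The Benjamini-Hochberg method adjusted p over all genes tested, and all adjusted p-values come from limma unless another test is named. Differences between tissues and between replicates 5 to 8 and 1 to 4 were interaction contrasts. The fits were tested on simulated data.

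The rule for named genes took all 9 members and every one of their probe sets, up to 4 called genes of smallest p in each direction from 3 lists of partner, upstream and target genes, and the 4 genes of highest correlation with Fos, Jun, Junb and Atf3. The members and lists were chosen with earlier results of these data known, and no count over a list is independent support.

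Groups share replicate numbers in the labels. Arrays of the same number deviated together in liver, with correlations of 0.17 to 0.54 over 8 pairs, which pairs the numbers by the rule used, though the labels name no shared animal. The 3 bone marrow pairs had correlations of -0.03 to 0.32 (mean 0.14, against -0.05 for other pairs), too few to decide. The 8 spleen pairs had -0.48 to 0.31 (mean -0.06, against 0.01). Alternatives covered probe set choice, the dim filter, normalization, variance model, test, replicate block and arrays left out.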

Additional observations from a re-analysis of the deposited data

Results flagged for a closer look

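The members that responded differently between tissues, by the interaction contrast in limma, were Jun, Maff, Jund and Atf3. The log2 change of Jun in liver minus spleen was 2.93 and in liver minus bone marrow 2.16. That of Maff was 1.48 and 1.60, and those of Jund and Atf3 in liver minus spleen were 0.73 and 0.65. The dimmer Jund probe set (1440265_at) gave -0.17 and was not called.

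In 6 of 65 groups of 4 to 8 arrays, 1 array stood far from the others relative to the range of its group, and chance gives about 1 in 20. Hypoxia liver 3 had Junb at a log2 intensity of 9.73, where the next hypoxia liver had 7.83. Vehicle liver 2 had Jund (1440265_at) at 4.68. Hypoxia spleen 1 had Fosl1 (1417488_at) at 4.03. The other 3 were in hypoxia bone marrow. Fosl1 stood at 5.73 in replicate 2 (1417487_at, nearest array 5.65) and at 5.02 in replicate 1 (1417488_at, nearest 4.86). Fosl2 (1422931_at) stood at 6.11 in replicate 3 (nearest 6.00). The remaining arrays of these groups lay close together, with some equal Fosl1 values, so small gaps were flagged.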

How the results depend on the processing

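Direction and call were kept for Fos, Jun, Maff and Atf3 in liver and for Fos and Fosl2 in spleen under every alternative run for that tissue. The alternative with every probe set fitted kept each gene's probe set of smallest p, so it did not test the gene's other probe set. The other spleen Fosl2 probe set (1422931_at) was 0.14 and not called (limma adjusted p = 0.350). With the replicate block, 5 members were called in liver and 3 in spleen, as without it, and 3 in bone marrow against 2, where Atf3 passed (0.36, adjusted p = 0.0461), as it did without vehicle replicate 3 (adjusted p = 0.0428). The bone marrow count was 1 in 1 fit of all arrays and 0 with the exact Wilcoxon test, whose smallest possible p with 4 against 3 arrays is 0.0571. Liver Fosl2 was -0.05, but 0.52 with the mean of its probe sets and 0.083 in replicates 5 to 8. With every probe set fitted it was 1.08, since 1437247_at was taken for its smaller p. Liver Fosl1 was 0.037 in replicates 1 to 4. With the mean of its probe sets, liver Jund was 0.30 (adjusted p = 0.00935) against 0.71, and spleen Fosl2 0.63 (adjusted p = 0.00127) against 1.13, both still called. Spleen Jund was 0.015 with the mean of its probe sets and 0.019 in replicates 5 to 8, and spleen Jun was -0.091 in replicates 5 to 8. Jund in liver missed the threshold in replicates 1 to 4 (0.65, adjusted p = 0.0860), and Maff in spleen in replicates 5 to 8 (adjusted p = 0.119) and 1 to 4 (adjusted p = 0.220). Leaving out 1 array at a time gave -0.069 to 0.022 for liver Fosl1, -0.20 to 0.29 for liver Junb, -0.073 to 0.033 for spleen Jund and 0.27 to 0.42 for spleen Maff. Alternatives chosen after seeing the data were the second probe sets and the tissue differences. Liver Fosl2 (1437247_at) stayed called without any 1 array (0.86 to 1.23) but not in replicates 1 to 4 (1.03, adjusted p = 0.268), nor spleen Jun (1448694_at) in replicates 5 to 8 (0.23, adjusted p = 0.231). Liver minus spleen was not called for Jund in replicates 1 to 4 (0.70, adjusted p = 0.0636) or Atf3 in replicates 5 to 8 (0.44, adjusted p = 0.0939). Junb in spleen minus bone marrow ran from -0.23 to 0.13 without 1 array. The causes were not tested. Members near the dim limit, such as Fosb and Fosl1, have little signal over background.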
